A study of Mus musculus with 4 samples.

Results

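Protein degradation genes of mouse CD4 T cells were compared between follicular helper T cells (Tfh), the helpers of B cells in the follicle, and activated non-Tfh cells with the same antigen receptor. The set held 148 genes: those of the proteasome whose symbols begin with Psma to Psmg (subunits, assembly factors and regulators), the ubiquitin-conjugating enzymes (E2, symbols Ube2) and the ubiquitin-specific proteases (symbols Usp and a digit), without symbols marked as pseudogenes. They were chosen by symbol alone, out of 39179 gene identifiers in the count tables. The 148 therefore include 3 antisense transcripts (Ube2uos, Usp46os1 and Usp46os2) and the processed pseudogenes Ube2d4 and Ube2nl, all without a count. Counts of the set made up 0.899 to 0.945% of each library.

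The cells came from OT-II mice, whose T cells carry 1 transgenic receptor for ovalbumin, and were moved into C57BL/6 hosts that received nitrophenol-ovalbumin under the skin. At day 8 the donor cells (Thy-1.1+ CD44hi) of pooled inguinal nodes were sorted as CXCR5+ PD-1+ (Tfh) or as CXCR5- PD-1- (non-Tfh), so both groups share receptor, host strain, immunogen and time. The 4 stranded total RNA libraries, 2 of either kind, carry the numbers T32 and T53, and a pair of values below gives T32 before T53. What these numbers mark, the number and age of the animals and the size of the pools are not given, so p-values measure the spread between these samples only. Library totals ran from 5725358 to 13360563 counts. The 9 T cell markers examined summed to 7782 to 9524 CPM (counts scaled to library size by trimmed mean of M-values), and none was called by edgeR, DESeq2 or limma-voom (2 at an unadjusted p under 0.05 in edgeR). Of 8 B cell markers Cd22 and Pax5 were higher in Tfh cells, and the other 6 together summed to 0.168 to 3.37 CPM in each library. Germinal centre B and plasma cell markers summed to 91.8 to 155 CPM, with S1pr2 called higher in Tfh cells. CD8 T and NK cell markers summed to 28.6 to 61.5 CPM. Klrb1c made up most of this except in non-Tfh T53, where it measured 12.4 CPM and Klrk1 13.15 CPM. Klrb1c was called higher in Tfh cells and Eomes lower. Klrk1 had a log2 fold change of -4.51 without a call, with 2.53 CPM in non-Tfh T32 and at most 0.503 CPM in Tfh libraries. Ncr1 had no count. Macrophage and dendritic markers summed to 6.41 to 13.0 CPM, with Itgam called lower in Tfh cells, and erythroid and granulocyte markers to at most 0.225 CPM. Stromal and endothelial markers summed to 212 to 237 CPM, nearly all of it Pecam1 (211 to 236 CPM, not called). In sorted bulk RNA, fewer cells with a transcript and less of it per cell cannot be told apart.

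Ubiquitin is activated by an E1 enzyme, passed to an E2 and joined by an E3 ligase to a substrate. Substrates that carry ubiquitin chains are read and unfolded by the regulatory particle (19S) of the proteasome and cut inside its barrel-shaped core particle (20S), while ubiquitin-specific proteases take ubiquitin off again. Activated T cells replace the catalytic core subunits in part by interferon-inducible ones, which form the immunoproteasome. NEDD8 and ISG15 are small relatives of ubiquitin with E2 enzymes and proteases of their own.

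The proteasome was transcribed at closely similar levels in both cell types, and the differences that passed the test lay with single genes. Usp6nl, Usp11 and Ube2e3 were higher in Tfh cells, and Usp3, Usp28 and Psme2b were lower. Of the 148 genes 123 had enough counts to be tested and 17 had no count in any library. A gene was called where edgeR's quasi-likelihood test gave a Benjamini-Hochberg adjusted p under 0.05 over all 11702 genes tested. This was met by 6 of the 123, 3 higher and 3 lower (4.88%), beside 8.49% of all genes tested (4.47% higher and 4.02% lower). The median log2 fold change, Tfh over non-Tfh, was 0.015 for the 123 genes and -0.0054 for all genes, and the median size without sign was 0.135 against 0.224. Values of both Tfh libraries lay above both non-Tfh libraries for 24 of the 123 genes and below for 20 (35.8% in all), beside 26.6% above and 25.6% below of all genes (52.2%). With 1 library left out, 1 to 3 of the 3 higher calls and 1 of the 3 lower calls were kept. Without non-Tfh T32, which kept 2 of the higher calls, Ube2c and Ube2s were called higher and Usp36 lower, and without Tfh T32, which kept 1, Usp18 was called lower.

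**Figure D1:**
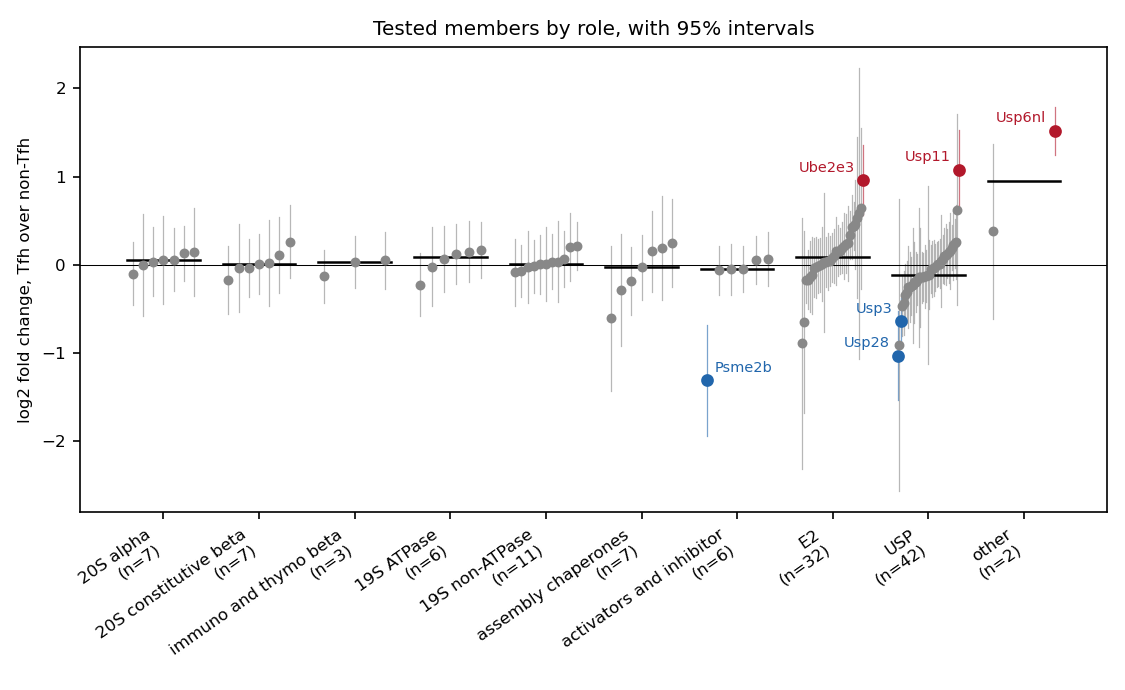
Log2 fold change (Tfh over non-Tfh, vertical axis) of the 123 tested genes by role (horizontal axis), each dot a gene with its 95% interval as a line and each black bar a group median; grey dots were not called, red and blue dots were called higher and lower. The group named other holds Usp6nl and Psmc3ip, which are neither E2 nor protease, and outside Psme2b every dot of the 7 proteasome groups lies between -0.604 and 0.262.

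Of the 49 proteasome genes, 47 were tested and only Psme2b, a retrogene, was called. Of the other 46 none was called by edgeR, by DESeq2 or by limma-voom, none had an unadjusted p under 0.05, and both groups stood apart for 7 (15.2%), beside 22.0% of all genes with such a p and 52.2% that stood apart. The summed level of these genes was 3406 and 3076 CPM in the Tfh pair against 3461 and 2913 in the non-Tfh pair. Both Tfh sums lay between the non-Tfh sums. The 95% intervals of 39 of the 46 genes lay within a 1.5-fold change in either direction, and those of 45 within a 2-fold change.

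The 7 tested alpha subunits, Psma1 to Psma7, which form the outer rings and gate the core, had a median log2 fold change of 0.055, from -0.099 (Psma7) to 0.146 (Psma6). Psma3, the alpha subunit with the most counts, measured 120.1 and 97.3 CPM in the Tfh pair against 112.5 and 96.7 in the non-Tfh pair. The groups overlapped, and the T32 library was the higher one in each. The 7 constitutive beta subunits of the inner rings, Psmb1 to Psmb7, had a median of 0.015, from -0.169 (Psmb7) to 0.262 (Psmb5). Psmb1, a structural subunit, measured 115 and 84.2 CPM in the Tfh pair against 117.5 and 87.5 in the non-Tfh pair. Here too the groups overlapped and each T32 library was above its T53 partner.

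Transcription of proteasome genes as a set is known to be raised by Nfe2l1, which binds the antioxidant response element when proteasome activity is short. Nfe2l1 itself measured 71.7 and 78.6 CPM in the Tfh pair against 71.9 and 67.3 in the non-Tfh pair and was not called (adjusted p = 0.673). The core letters of the element, TGACNNNGC on either strand, were found in 6 of 44 promoter windows of proteasome genes (13.6%), those of Psmb5, Psmb6, Psmc6, Psmd9, Psmd12 and Psme4, beside 12.4% of 32851 windows of all genes. Windows run from 250 bases before to 50 after a transcription start and were taken from RefSeq (GRCm38.p6), which held 117 of the 148 genes. That of Psmb5, chr14:54617946-54618245 on the minus strand, is shown because Psmb5 carries the chymotrypsin-like site and had the highest estimate of the 46 genes. The match, in capitals, begins 47 bases before the start.

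Psmb5: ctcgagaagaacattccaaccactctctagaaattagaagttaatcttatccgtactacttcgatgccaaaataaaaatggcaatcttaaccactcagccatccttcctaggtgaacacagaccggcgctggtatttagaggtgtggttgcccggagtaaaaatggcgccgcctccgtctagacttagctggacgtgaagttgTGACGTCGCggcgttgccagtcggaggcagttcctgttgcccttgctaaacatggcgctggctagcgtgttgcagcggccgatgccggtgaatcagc

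For the immunoproteasome subunits no difference between Tfh and non-Tfh cells beyond the spread of the libraries was found. Psmb8, Psmb9 and Psmb10 take the places of Psmb5, Psmb6 and Psmb7 at the catalytic sites called beta5, beta1 and beta2. Psmb8 measured 260.4 and 228 CPM in the Tfh pair against 251.0 and 220.9 in the non-Tfh pair, and the groups overlapped (log2 fold change 0.051, 95% interval -0.269 to 0.371, adjusted p = 0.875). Psmb9 measured 99.95, 86.5, 92.5 and 89.7 CPM in the same order, again with overlap (0.036, -0.258 to 0.329, adjusted p = 0.909). Psmb10 measured 65.3, 59.9, 72.3 and 64.9 CPM (-0.130, -0.428 to 0.168, adjusted p = 0.622). All 3 intervals exclude a 1.5-fold change. The partners Psmb5 (31.0, 30.7, 29.1 and 22.3 CPM), Psmb6 (52.5, 51.5, 58.0 and 48.3 CPM) and Psmb7 (52.1, 47.0, 62.9 and 48.6 CPM) were not called either.

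Per kilobase of principal transcript, the immuno form made up 80.4 to 84.6% of the beta5 pair, with 82.3% and 80.4% in the Tfh pair against 82.7% and 84.6% in the non-Tfh pair. It made up 48.5 to 52.9% of the beta1 pair and 50.4 to 54.2% of the beta2 pair, and Tfh and non-Tfh values overlapped in both. In the beta5 pair both Tfh shares lay below both non-Tfh shares, and the 82.3% of Tfh T32 stood next to the 82.7% of non-Tfh T32. These shares depend on the length used. With the union of all annotated exons the beta5 pair gave 66.4 to 72.5% and the beta2 pair 69.8 to 72.8%. They may also depend on how reads that match other genes were counted. Psmb5 has a larger part of its 75-base windows in other genes than Psmb8, and Psmb7 a larger part than Psmb10. In the beta1 pair the immuno form Psmb9 has the larger part. The effect on the shares was not tested. Psmb11, the form of thymic epithelium, had 28 counts in all and was not tested.

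**Figure D2:**
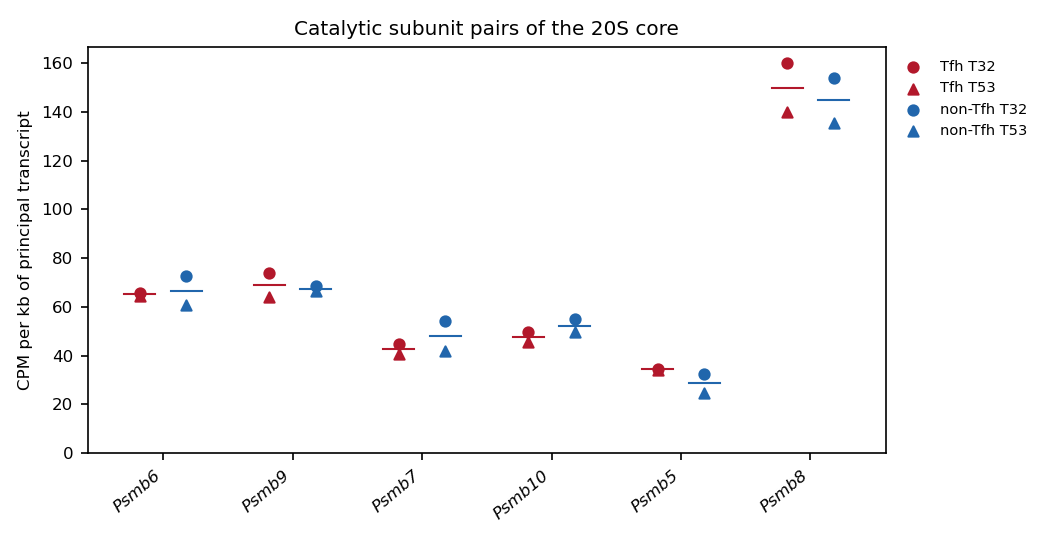
Level per library (vertical axis, CPM per kilobase of principal transcript) of the catalytic subunits, with each constitutive form followed by its immuno form; red marks Tfh and blue non-Tfh, circles T32 and triangles T53, and bars are group means of 2. Psmb8 stands at 136 to 160.0 in all 4 libraries and its partner Psmb5 at 24.8 to 34.5.

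The interferon-inducible activator of the core was even as well. Psme1 and Psme2 form a ring-shaped activator that opens the core without ubiquitin. Psme1 measured 174.9 and 159 CPM in the Tfh pair against 162.9 and 158.8 in the non-Tfh pair (log2 fold change 0.054, 95% interval -0.220 to 0.328, adjusted p = 0.841). Psme2 measured 118.8, 108.3, 122.7 and 114.5 CPM (-0.062, -0.339 to 0.216, adjusted p = 0.821), and in neither did the groups stand apart. Psme1, Psme2 and Psmb8 were the 3 most abundant of the 47 tested proteasome genes per kilobase, with means over the libraries of 147, 121 and 148 CPM per kilobase. Of the 75-base windows of Psme2, 51.7% occur in its copy Psme2b, so the level of Psme2 depends on how reads that match both were counted. The promoter window of Psme1, chr14:55578244-55578543 on the plus strand, is shown because it holds the core of the interferon-stimulated response element. The core was searched on both strands as a pair of GAAA runs 2 bases apart. It was found in 5 of the 44 proteasome windows (11.4%, beside 3.44% of all windows), those of Psmb3, Psmd4, Psmd9, Psme1 and Psmg4. Psmb8, Psmb9, Psmb10 and Psme2 were not among them. The match in Psme1 begins 9 bases after the start and stands in capitals, on the opposite strand.

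Psme1: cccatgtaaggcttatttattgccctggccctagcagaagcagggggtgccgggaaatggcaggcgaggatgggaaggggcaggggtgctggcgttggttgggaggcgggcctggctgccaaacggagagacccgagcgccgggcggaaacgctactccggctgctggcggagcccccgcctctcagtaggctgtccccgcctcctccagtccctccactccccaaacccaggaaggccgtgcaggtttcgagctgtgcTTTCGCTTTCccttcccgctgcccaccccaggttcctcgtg

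The nuclear activator Psme3 measured 80.8 to 91.8 CPM, and the long activator Psme4 121 to 129 CPM over the 4 libraries. The inhibitor Psmf1 had its highest level, 43.7 CPM, in Tfh T32 and its lowest in Tfh T53, below the 40.1 and 40.2 CPM of the non-Tfh pair. None of these 3 was called (adjusted p = 0.833 to 0.875).

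Psme2b was the proteasome gene that differed, and its sequence limits what its counts mean. It is an intronless copy of Psme2 (ENSMUSG00000078153, GRCm38 chromosome 11, 48945354 to 48946190, minus strand), while Psme2 lies on chromosome 14, 55587441 to 55591113. It measured 10.1 and 5.94 CPM in the Tfh pair against 20.04 and 21.02 in the non-Tfh pair. Both Tfh libraries were below both non-Tfh libraries, with a 2.47-fold lower level (log2 fold change -1.31 ± 0.261 SE, edgeR adjusted p = 0.0325). The call was lost without Tfh T53 (-1.002, adjusted p = 0.0839), without non-Tfh T32 (-1.34, 0.055) and without non-Tfh T53 (-1.27, 0.0552).

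The coding sequences of Psme2 and Psme2b have 717 bases each and differ at 5 of them (99.3% identical), with an identical run of 311 bases at the 5′ end. Of the 75-base windows of the Psme2b transcript, the length of 1 sequenced read, 459 of 763 (60.2%) occur without change in Psme2. The stretch of 120 coding bases with the most differences, coding positions 424 to 543, is shown for both because a read within the coding sequence must cover such a place to be told apart. Capitals mark the 3 differing bases, and the genomic spans on the minus strand are chr14:55588049-55588449, which spans intron sequence, and chr11:48945576-48945695.

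Psme2: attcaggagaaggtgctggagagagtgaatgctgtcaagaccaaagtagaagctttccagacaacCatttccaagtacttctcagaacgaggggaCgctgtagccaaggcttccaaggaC
Psme2b: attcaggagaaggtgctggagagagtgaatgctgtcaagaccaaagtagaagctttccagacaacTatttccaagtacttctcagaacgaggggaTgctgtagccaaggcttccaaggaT

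With the counts of both genes summed, an alternative chosen after the data were seen, the log2 fold change was -0.193 (adjusted p = 0.422). Psme2b lies at the 3′ end of 9930111J21Rik1, on the same strand, and their exons share 41 bases. 9930111J21Rik1 measured 33.9 and 21.5 CPM in the Tfh pair against 76.4 and 77.9 in the non-Tfh pair (log2 fold change -1.46 ± 0.213, adjusted p = 0.0136). Its relative 9930111J21Rik2, further along the chromosome, measured 154 and 105 CPM in Tfh and 351 and 323 CPM in non-Tfh libraries (-1.37 ± 0.196, adjusted p = 0.012). Of 4 further interferon-inducible GTPase genes of chromosome 11, none was called: Tgtp1, which lies between the Rik genes, had a log2 fold change of -1.64 (adjusted p = 0.0718), Tgtp2 of -0.539 (0.275), Igtp of -0.522 (0.138) and Irgm1 of -0.489 (0.391). These 6 genes were looked up after the values of Psme2b were seen. Tfh T53 was the lowest library for Psme2b, for all 6 and for the sum of the interferon-stimulated genes described further on. Whether its counts come from its own start or from transcripts of 9930111J21Rik1 was not tested.

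The regulatory particle showed the same evenness as the core. The 6 ATPases of its base, Psmc1 to Psmc6, which unfold substrates, had a median log2 fold change of 0.095, from -0.226 (Psmc6) to 0.169 (Psmc3). Psmc3 measured 94.2 and 87.7 CPM in the Tfh pair against 87.8 and 74.0 in the non-Tfh pair (adjusted p = 0.533). 1 Tfh library lay within the range of the non-Tfh pair. The 11 other subunits had a median of 0.008, from -0.083 (Psmd6) to 0.209 (Psmd11). Psmd2, a large scaffold that docks ubiquitin carriers, measured 157.6 and 167 CPM in the Tfh pair against 176.5 and 151.5 in the non-Tfh pair (log2 fold change -0.017, 95% interval -0.319 to 0.285). The ubiquitin receptor Psmd4 (84.0 to 98.6 CPM) and the built-in protease Psmd14, which removes chains from substrates (59.2 to 69.7 CPM), overlapped between groups as well.

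The 7 assembly chaperones were not called. Psmg1 to Psmg4 place the alpha ring, and Psmd5, Psmd9 and Psmd10 hold parts of the base. Their log2 fold changes ran from -0.604 (Psmg4, 95% interval -1.43 to 0.218) to 0.251 (Psmg1). Psmd5, the one with the most counts, measured 36.4 and 41.1 CPM in the Tfh pair against 42.8 and 35.6 in the non-Tfh pair. Psmg4 measured 5.78, 3.67, 8.79 and 5.85 CPM in that order, and its interval includes a level 2-fold lower.

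Core and regulatory particle subunits moved with the library number in both cell types. Of the 34 tested subunits of both particles, 29 were higher in T32 than in T53 in both groups, beside 31.9% of all genes. The median log2 ratio of T32 over T53 was 0.142 in Tfh and 0.298 in non-Tfh cells, against 0.002 in both for all genes tested, and the median size of the log2 fold change between cell types was 0.061 for these subunits. All 7 alpha subunits and all 3 tested immuno subunits had this order. Summed over the alpha subunits, the levels were 646 and 541 CPM in the Tfh pair against 644 and 500.0 in the non-Tfh pair. Among E2 and protease genes 21 of 74 had it. As T53 was also the shallower library of each group, and no label says what the number stands for, number and depth cannot be told apart.

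**Figure D3:**
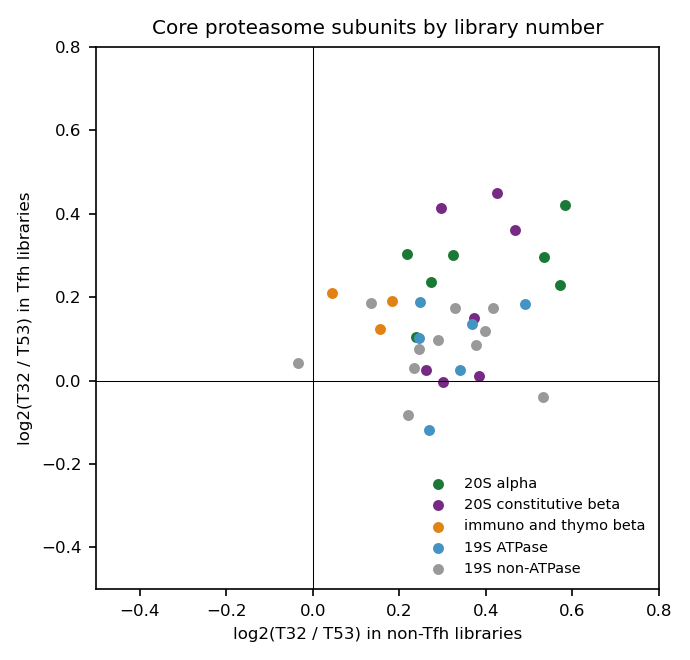
Log2 ratio of the T32 over the T53 library in non-Tfh (horizontal axis) and in Tfh cells (vertical axis) for 34 proteasome subunits, coloured by role. Most points lie where both ratios are above 0, which holds the 29 subunits that were higher in T32 in both groups.

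Among the 39 genes placed with the E2 enzymes by symbol, 32 were tested and 1 was called (3.12%, beside 8.49% of all genes). Ube2d4 and Ube2nl among the 39 are annotated as processed pseudogenes and had no count. Ube2cbp, placed here by its symbol only, had the lowest estimate (-0.887, edgeR adjusted p = 0.463). Of the 32 estimates 22 were above 0, beside 49.3% of all genes, and the median was 0.092. Ube2e3, an E2 of the class with an extended N-terminus (ENSMUSG00000027011, chromosome 2, 78868124 to 78921293), measured 21.5 and 21.5 CPM in the Tfh pair against 10.7 and 11.4 in the non-Tfh pair. The groups stood apart 1.95-fold (log2 fold change 0.963 ± 0.163 SE, edgeR adjusted p = 0.0189). The log2 ratio was 1.005 within T32 and 0.92 within T53. With a library left out the estimate was 0.92 to 1.003, but the call was lost when it was either Tfh library (0.965 with adjusted p = 0.0847 for T32, 0.979 with 0.0841 for T53) or non-Tfh T32 (0.924, 0.0508). Its close relatives Ube2e1 (27.0 to 35.5 CPM, log2 fold change 0.213, 95% interval -0.157 to 0.584) and Ube2e2 (1.01 to 4.02 CPM, 0.584, -1.06 to 2.23) were not called. Of the 75-base windows of Ube2e1, 50.4% occur in other genes, among them Nkiras1, which overlaps it on the opposite strand, and none of Ube2e3 does. Whether the relatives differ in response was not tested.

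The E2 enzymes of NEDD8, which switches on cullin ligases, were not called, though both had the higher values in Tfh cells. Ube2m measured 60.7 and 61.8 CPM in the Tfh pair against 45.3 and 45.0 in the non-Tfh pair (log2 fold change 0.441, 95% interval 0.164 to 0.718, adjusted p = 0.0701). Ube2f measured 37.4, 42.4, 31.8 and 27.2 CPM (0.428, 0.064 to 0.792, adjusted p = 0.157). Both Tfh libraries were above both non-Tfh libraries for each. Without a count filter Ube2m passed the test (0.435, adjusted p = 0.0481). NEDD8 itself (Nedd8, 0.242, adjusted p = 0.612) and its activating enzymes Uba3 (-0.165, 0.622) and Nae1 (-0.104, 0.688) were not called. Ube2r2, which works with cullin ligases, measured 90.8 and 87.0 CPM in Tfh and 72.5 and 68.2 CPM in non-Tfh libraries (0.338, adjusted p = 0.135).

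Ube2d3 and Ube2n, E2 enzymes with many counts, were not called. Ube2d3, an E2 used by many ligases, measured 255 and 219.7 CPM in the Tfh pair against 262 and 222 in the non-Tfh pair (log2 fold change -0.026, 95% interval -0.370 to 0.318). The groups overlapped, and in each the T32 library was the higher one. Ube2n, which builds the chains of lysine linkage used in receptor signalling, measured 99.6, 90.0, 87.7 and 72.6 CPM (0.242, -0.089 to 0.574). Both Tfh values lay above both non-Tfh values, without a call (adjusted p = 0.382). Its cofactor Ube2v1 measured 3.43 to 8.21 CPM, but 89.8% of its 75-base windows occur in other genes, among them the read-through gene Gm20431, so its level is uncertain.

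E2 enzymes of mitosis differed between the non-Tfh libraries. Ube2c, which starts ubiquitin chains for the anaphase-promoting complex, measured 20.4 and 19.9 CPM in the Tfh pair against 17.7 and 7.76 in the non-Tfh pair (log2 fold change 0.642, adjusted p = 0.397). Ube2s, which extends those chains, measured 72.3, 69.5, 62.1 and 40.6 CPM (0.461, adjusted p = 0.268). The low value in each was that of non-Tfh T53. The 20 mitosis and proliferation genes summed to 1069, 1372, 1270.0 and 658 CPM in the same libraries, so that non-Tfh T53 was lowest there too; none of them was called by edgeR, DESeq2 or limma-voom and none had an unadjusted p under 0.05. Their part in the values of Ube2c and Ube2s was not tested. Without non-Tfh T32 both passed the test (Ube2c 1.38, adjusted p = 0.0178; Ube2s 0.809, 0.0258), and without non-Tfh T53 their log2 fold changes were 0.191 and 0.192. Ube2t, the E2 of the Fanconi pathway, measured 3.71 to 5.44 CPM with overlap.

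Ubiquitin-specific proteases held 3 of the 6 calls. Of 55 genes, placed here by symbol whether or not their products are active proteases, 42 were tested. Among these 1 was higher and 2 were lower (7.14%, beside 8.49% of all genes). The median log2 fold change was -0.111, with 16 of 42 estimates above 0, beside 49.3% of all genes. Both Tfh libraries were below both non-Tfh libraries for 13 of the 42 and above for 8, beside 25.6% and 26.6% of all genes.

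Usp3, which takes ubiquitin off histone H2A (ENSMUSG00000032376, chromosome 9, 66514637 to 66593142), measured 92.8 and 94.1 CPM in the Tfh pair against 142 and 148 in the non-Tfh pair. The libraries of each group lay close together, and Tfh cells held 1.55-fold less (log2 fold change -0.634 ± 0.107 SE, edgeR adjusted p = 0.0189). The call was lost without Tfh T32 (-0.619, adjusted p = 0.10) or Tfh T53 (-0.629, 0.11). Other proteases known to act on histone H2A did not pass: Usp16 had a log2 fold change of -0.126, Usp21 of 0.220 and Usp22 of -0.240 (adjusted p = 0.379 to 0.623).

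Usp28, which protects Myc and other nuclear proteins from degradation (ENSMUSG00000032267, chromosome 9, 48985375 to 49042517), measured 20.9 and 31.8 CPM in the Tfh pair against 52.2 and 53.7 in the non-Tfh pair. Tfh T32 was the lowest library and the non-Tfh pair lay close together, and the level in Tfh cells was 2.04-fold lower (-1.03 ± 0.207, adjusted p = 0.0339). The log2 ratio was -1.32 within T32 and -0.757 within T53. The call was lost without Tfh T32 (-0.732, adjusted p = 0.0872), non-Tfh T32 (-1.05, 0.0719) or non-Tfh T53 (-1.01, 0.0693). Its nearest relative Usp25 measured 192 and 153 CPM in Tfh and 248 and 219.5 CPM in non-Tfh libraries and did not pass (-0.436, 95% interval -0.798 to -0.074, adjusted p = 0.149). Both relatives had the lower values in both Tfh libraries.

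Usp11, a protease linked to DNA repair (ENSMUSG00000031066, chromosome X, 20703906 to 20720539), measured 20.7 and 17.8 CPM in the Tfh pair against 9.61 and 8.66 in the non-Tfh pair. It was 2.11-fold higher in Tfh cells (1.08 ± 0.187, adjusted p = 0.0203), with 1.11 within T32 and 1.04 within T53 on the log2 scale. The call was lost without Tfh T32 (0.964, adjusted p = 0.112). Usp4 and Usp15, which share its domain order, measured 135 to 160 CPM (0.197, 95% interval -0.063 to 0.457) and 92.6 to 111 CPM (-0.141, -0.427 to 0.146) and were not called.

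The promoter windows of these 3 proteases are shown because they belong to the called proteases. Each holds a CCAAT box, in capitals on either strand, as did 14 of 42 windows of ubiquitin-specific proteases (33.3%) and 37.4% of all windows. The spans are chr9:66593066-66593365 on the minus strand for Usp3, chr9:48985135-48985434 on the plus strand for Usp28 and chrX:20703659-20703958 on the plus strand for Usp11. None of the 3 holds TGACNNNGC or the interferon-stimulated core.

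Usp3: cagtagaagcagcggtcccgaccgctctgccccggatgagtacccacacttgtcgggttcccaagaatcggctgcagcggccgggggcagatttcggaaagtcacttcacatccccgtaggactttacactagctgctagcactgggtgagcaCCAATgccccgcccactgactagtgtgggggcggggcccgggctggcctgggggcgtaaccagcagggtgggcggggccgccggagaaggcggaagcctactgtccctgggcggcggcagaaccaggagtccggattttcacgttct
Usp28: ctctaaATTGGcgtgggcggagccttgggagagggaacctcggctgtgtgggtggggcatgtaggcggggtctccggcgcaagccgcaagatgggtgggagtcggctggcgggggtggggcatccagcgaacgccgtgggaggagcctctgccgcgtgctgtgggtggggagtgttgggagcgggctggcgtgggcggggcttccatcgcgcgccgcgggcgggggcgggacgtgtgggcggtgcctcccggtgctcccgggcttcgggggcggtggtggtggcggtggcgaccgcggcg
Usp11: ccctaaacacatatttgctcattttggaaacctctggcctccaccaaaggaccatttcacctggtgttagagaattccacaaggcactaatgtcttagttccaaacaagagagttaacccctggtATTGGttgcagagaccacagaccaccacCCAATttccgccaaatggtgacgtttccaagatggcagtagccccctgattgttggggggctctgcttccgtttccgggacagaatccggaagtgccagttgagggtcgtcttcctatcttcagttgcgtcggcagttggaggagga

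**Figure D4:**
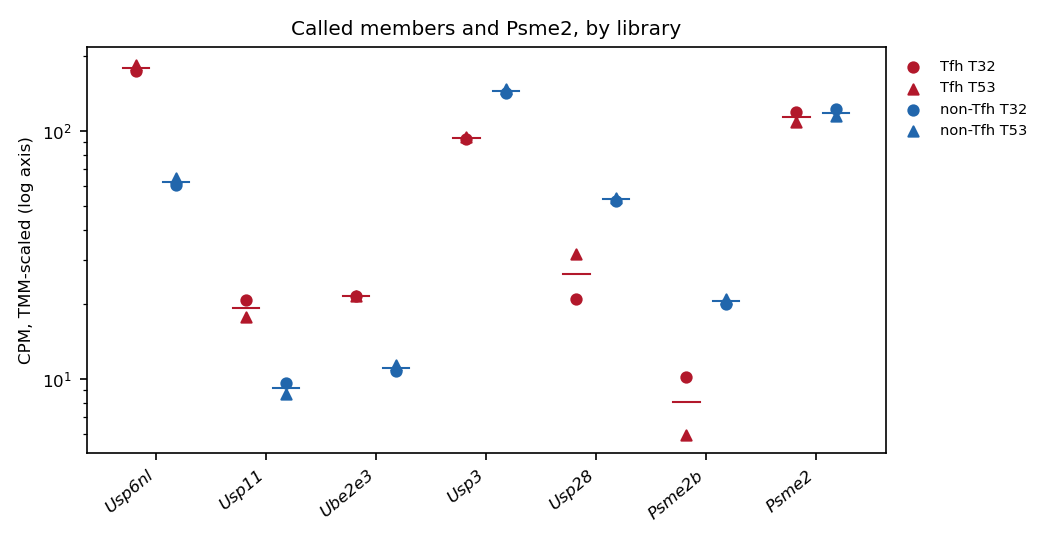
Level per library (vertical axis, scaled CPM on a log axis) of the 6 called genes and of Psme2; red marks Tfh and blue non-Tfh, circles T32 and triangles T53, and bars are group means of 2. The colours separate in the 6 called genes and overlap in Psme2.

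Usp6nl had the lowest p of the set but is no protease: it encodes a Rab GTPase-activating protein of endocytosis that carries the name of a related gene. It lies on chromosome 2, 6322667 to 6446390 (ENSMUSG00000039046), and measured 174.9 and 183.9 CPM in the Tfh pair against 60.6 and 64.4 in the non-Tfh pair. It rose 2.87-fold (95% interval 2.38 to 3.46, log2 fold change 1.52 ± 0.113, edgeR adjusted p = 0.00144). This was the 1 call of the 6 that no left-out library removed, with log2 fold changes of 1.48 to 1.56 and adjusted p of 0.00106 to 0.00286. Psmc3ip, a factor of meiotic recombination that is no proteasome subunit either, measured 2.51 to 4.72 CPM with overlap.

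Usp34, Usp9x and Usp7, the proteases with the highest mean CPM, had estimates near 0 and were not called. Usp24, Usp25 and Usp38, the next by mean CPM, had log2 fold changes of -0.195, -0.436 and -0.337 and were not called either. Usp34, a very large protease of Wnt signalling, measured 425 and 576 CPM in the Tfh pair against 411 and 562 in the non-Tfh pair (log2 fold change 0.041, 95% interval -0.481 to 0.564). It was higher in T53 in both groups, as were 31.1% of all genes. Usp9x, an X-linked protease, measured 445 to 511 CPM (-0.038, -0.356 to 0.281) and Usp7, which acts on the p53 regulator Mdm2, 274 to 294 CPM (-0.046, -0.322 to 0.230). Usp14, the protease that docks on the proteasome, measured 43.5 to 49.2 CPM (-0.044, -0.358 to 0.269). Of its 75-base windows, searched on both strands, 45.0% occur in Thoc1, which overlaps it on the opposite strand. Among genes below the threshold for a call, the nucleolar protease Usp36 measured 54.2 and 52.7 CPM in Tfh and 65.9 and 82.1 CPM in non-Tfh libraries (-0.465, adjusted p = 0.113); it was called without non-Tfh T32 (-0.614, 0.0487).

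The ISG15 protease and E2 were not called, and the groups overlapped for both. Within each library number the Tfh value was the lower one, though the numbers are not taken to pair the samples. Usp18, the ISG15 protease, measured 36.4 and 8.73 CPM in the Tfh pair against 52.7 and 35.6 in the non-Tfh pair (log2 fold change -0.911, 95% interval -2.57 to 0.742, adjusted p = 0.502). Ube2l6, the E2 of ISG15, measured 3.94, 2.10, 6.11 and 3.597 CPM (-0.643, adjusted p = 0.464). ISG15 itself (Isg15) measured 37.5, 13.6, 30.8 and 20.2 CPM (0.036, adjusted p = 0.981). Its activating enzyme Uba7 measured 244.5, 182.9, 274.8 and 274.2 CPM (-0.358, adjusted p = 0.263), and neither was called. Tfh T53 was the lowest library for each, and T32 was above T53 in both groups. The 23 interferon-stimulated genes, Usp18 among them, summed to 2546, 1572, 2743 and 2367 CPM in the same order, with Tfh T53 lowest; 20 of the 23 were higher in T32 than in T53 in both groups, and edgeR called none of them (2 at an unadjusted p under 0.05, none by limma-voom and Gbp2 by DESeq2 with adjusted p = 0.00112). Their part in the value of Usp18 was not tested. Usp18 passed the test when Tfh T32 was left out (-2.34, adjusted p = 0.00929), and its estimate was -0.272 when Tfh T53 was left out (0.803).

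**Figure D5:**
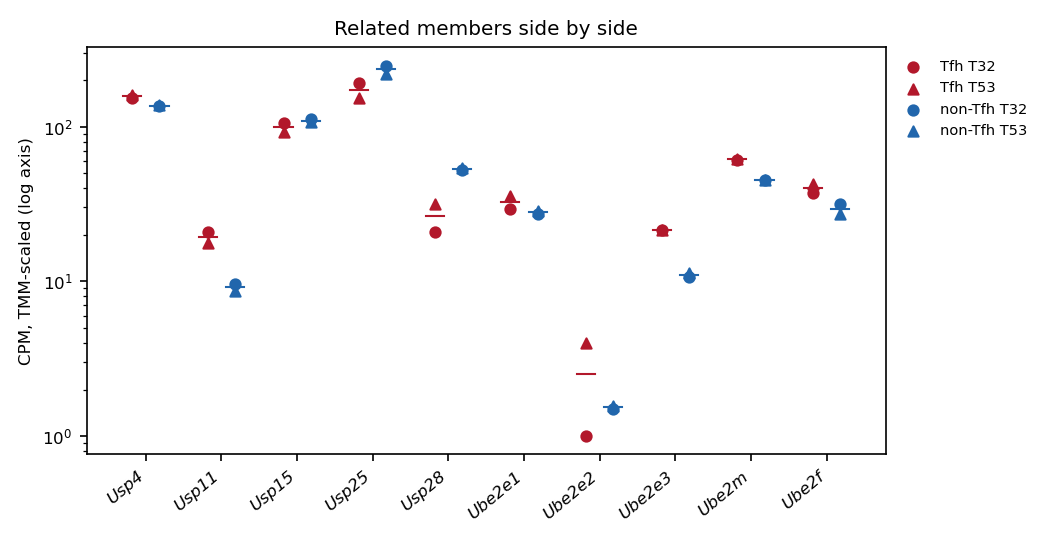
Level per library (vertical axis, scaled CPM on a log axis) of related genes side by side: Usp4, Usp11 and Usp15, then Usp25 and Usp28, the Ube2e genes and the NEDD8 enzymes; red marks Tfh and blue non-Tfh, circles T32 and triangles T53, and bars are group means of 2. Among these genes the called ones are Usp11, Usp28 and Ube2e3, and both NEDD8 enzymes have the Tfh values above the non-Tfh values.

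Other genes of the pathway held no call by edgeR. Of 75 listed symbols for ubiquitin and its relatives, activating enzymes, shuttles, other proteases and proteasome cofactors, 71 matched an identifier and 70 were tested. None was called by edgeR or limma-voom, beside 8.49% of all genes called by edgeR. Of the 70, 6 had an unadjusted p under 0.05 in edgeR, beside 22.0% of all genes. DESeq2 called Otud7b (log2 fold change 0.529, adjusted p = 0.0491). The median was -0.013, and both groups stood apart for 29 of the 70 (41.4%, beside 52.2% of all genes). The ubiquitin-activating enzyme Uba1 measured 454 and 436 CPM in the Tfh pair against 413 and 328 in the non-Tfh pair (0.264, adjusted p = 0.385). Otud7b, a protease that restrains NF-kappaB signalling, measured 86.9, 103, 66.3 and 64.3 CPM (0.535, adjusted p = 0.0555 in edgeR), and both Tfh values were the higher ones. Otub2, a relative, had the largest estimate of the list, with 6.37 and 8.04 CPM in Tfh and 2.61 and 3.597 CPM in non-Tfh libraries (1.21, 2.32-fold, adjusted p = 0.0697), and the groups stood apart. Otulin, which removes linear chains, measured 31.3 and 29.0 CPM in Tfh and 41.8 and 40.7 CPM in non-Tfh libraries (-0.450, adjusted p = 0.0954).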

How the data were processed

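The authors deposited counts per gene as whole numbers for 39179 Ensembl identifiers in 4 libraries. TopHat2, Bowtie2 and HTSeq with GRCm38 (mm10) are named, per the submitters' processing notes; versions, annotation release and strand setting are not given in the sources used here. GENCODE M21 (GRCm38) gave symbols, positions and lengths for 37607 identifiers, and the 1572 others stayed in the totals.

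Groups were compared with edgeR 4.0.16 in R 4.3.3 (filterByExpr, trimmed mean of M-values, robust quasi-likelihood fit by group, 2 residual degrees of freedom, two-sided test, Benjamini-Hochberg over 11702 genes). SEs were derived from the F statistic and the estimate, and 95% intervals from the degrees of freedom of the test. 1 count was worth 0.0748 to 0.175 CPM. Lengths are those of the longest APPRIS principal transcript. Alternatives were other scalings (RLE, upper quartile), DESeq2 1.42.0, limma-voom (limma 3.58.1), looser and stricter count filters, the fit with a library number block or lacking the robust option, the removal of mitochondrial genes and the 10 with most counts, and leaving out single libraries. The fit was tested on simulated data.

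Values in every library are given for called genes, the gene with the most counts in each role group, and a set list (Psmb5 to Psmb10, Psme1, Psme2, Ube2c, Ube2s, Ube2t, Ube2n, Ube2l6, Usp18, and 1 gene that is not reported here); a further rule, for uncalled genes of the set itself with an estimate of at least 2-fold, found none. Further genes, mostly relatives of these, were picked with their values in view. The set, lists and rule were chosen with earlier results of these data known.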

Additional observations from a re-analysis of the deposited data

How the results depend on the processing

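The 6 calls kept their direction under all alternatives run, and kept the call under the 9 that leave out no library, except Psme2b summed with Psme2 (-0.193). With a library left out, 12 of 24 values lost it. Without a count filter 6 genes were called higher and 5 lower, and 1986 of all genes; the 5 added genes were Ube2c, Ube2m, Ube2s, Usp25 and Usp36. With a replicate block for the library number 5 were higher and 6 lower, and 2120 of all genes; the 5 added genes were Ube2m (adjusted p = 0.0214), Ube2r2 (0.0419), Usp25 (0.0148), Usp36 (0.037) and Usp38 (0.0415). Same-numbered libraries deviated together (correlation 0.368), but with 2 pairs and no label the numbers are not taken to pair the samples. Leaving out each library gave 1 to 4 genes higher, 1 to 2 lower and 545 to 884 of all genes, with 545 without Tfh T53. Ube2t turned to -0.007 with limma-voom. Uncalled genes near 0 changed sign with a library left out, with log2 fold changes from -0.102 to 0.213 for Psma3, -0.282 to 0.198 for Psmb1, -0.156 to 0.108 for Psmb6, -0.339 to 0.035 for Psmb7, -0.044 to 0.156 for Psmb8, -0.072 to 0.148 for Psmb9, -0.122 to 0.101 for Psmd2, -0.151 to 0.116 for Psmd5, -0.014 to 0.135 for Psme1, -0.128 to 0.016 for Psme2, -0.141 to 0.103 for Ube2d3, -0.211 to 0.343 for Ube2t and -0.178 to 0.284 for Usp34; the cause was not tested.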

Other observations

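The 25 genes that were not tested included forms known from testis and thymus. Psma8, the alpha subunit of the spermatoproteasome, had 1 count in all, and Usp26 and Usp29 had none. Of the 5 multicopy Usp17l genes, Usp17la had 21 counts and Usp17lc had 1; their sequences overlap, so single members are uncertain. Of the X and Y copies Usp9x and Usp9y, Usp9x measured 445 to 511 CPM and Usp9y had no count in any library. The Y-linked genes Ddx3y, Eif2s3y and Kdm5d had no count either, Uty had 2 counts in non-Tfh T32, and Xist measured 1565 to 3156 CPM. The labels do not give the sex of the donors.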
